A study of Mus musculus with 12 samples.

Results

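The genes described are 31 members of the presynaptic vesicle release machinery, measured in female mouse medial prefrontal cortex and chosen by a list of symbols, not by their values. All 31 were found among the 24411 gene symbols of the count table, and all 31 were among the 15199 genes with enough counts to be tested. By role, 11 are proteins of the synaptic vesicle, 11 belong to membrane fusion and its recycling, 7 to the active zone, where vesicles dock, and 2 to endocytosis. Rph3a, an effector of the vesicle GTPase Rab3a, was counted with the active zone genes. RNA came from 4 groups of 3 libraries. Wild-type (WT) C57BL/6J mice and knockout (KO) mice lacking Cav3.1, a T-type calcium channel encoded by Cacna1g, were each studied without stress and after chronic stress. The KO line was on the C57BL/6J background, and all mice were 8 to 12 weeks old. Chronic stress meant a forced swim or a tail suspension test once daily over 5 days, and the labels do not say which of the tests a given mouse had. Since WT mice were bought from a breeder while the KO line was supplied by a bioresource centre, effects of genotype and of colony cannot be told apart. The labels do not state that the libraries of a group were separate animals, and p-values therefore measure the spread between these libraries.

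Synaptic vesicles are filled with transmitter, held near the membrane by synapsins and scaffold proteins, and prepared for release at the active zone. Fusion is driven by the pairing of SNARE proteins on the vesicle (Vamp) and on the membrane (Snap25, Stx1a), with synaptotagmin as the calcium sensor and complexin as a regulator of the assembled complex. NSF and its SNAP adaptors then take the spent complexes apart, and dynamin and amphiphysin help to retrieve the membrane.

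The libraries held between 15469590 and 31082240 estimated counts, and the lowest count of any member in any library was 289 (Slc17a6), so counting error was small beside the spread between libraries. Values are given as CPM, read counts scaled to library size. Cacna1g stood between 109 and 144 CPM in the 6 WT libraries and between 54.6 and 66.0 CPM in the 6 KO libraries, with no overlap. Markers of cortical excitatory neurons were present in every library, but 2 of the unstressed WT libraries stood apart. The 11 olfactory bulb markers tested had a score (mean log2 CPM centred over the 12 libraries) of 3.49 and 3.65 in unstressed WT libraries 1 and 2, against -2.50 to 0.63 in the other 10. Their summed level was 1095 and 1125 CPM in these libraries and 26.2 to 143 CPM elsewhere, with at most 2 markers at 0 in any library. Cortical excitatory markers had scores of -0.61, -0.28 and 0.08 in unstressed WT libraries 1 to 3 and -0.02 to 0.19 elsewhere. Meningeal markers had scores of 1.68, 1.89 and 0.40 in unstressed WT. Stressed KO library 1 had the highest striatal score, 1.99, with a summed level of 946 CPM against 260 to 312 CPM elsewhere. These 3 libraries enter the results below. Values without unstressed WT libraries 1 and 2 are given for the members in each comparison, and for the wider list only in part. Values without stressed KO library 1 as well are given for some comparisons.

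All members were expressed, at levels that differed widely per length of transcript. Dividing the level by the annotated exon length gave 443 CPM per kilobase for Snap25, the membrane SNARE, as the highest of the 31. It was followed by the vesicle membrane protein Syp at 346, the vesicle SNARE Vamp2 at 345 and the vesicular glutamate transporter Slc17a7 at 332 CPM per kilobase. The lowest were the giant scaffold protein Pclo at 12.8, the second vesicle SNARE Vamp1 at 8.94, the other vesicular glutamate transporter Slc17a6 at 4.56 and the synapsin Syn3 at 4.45 CPM per kilobase. Exon lengths are the union of annotated exons, so a gene with long unused exons is placed too low.

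**Figure D1:**
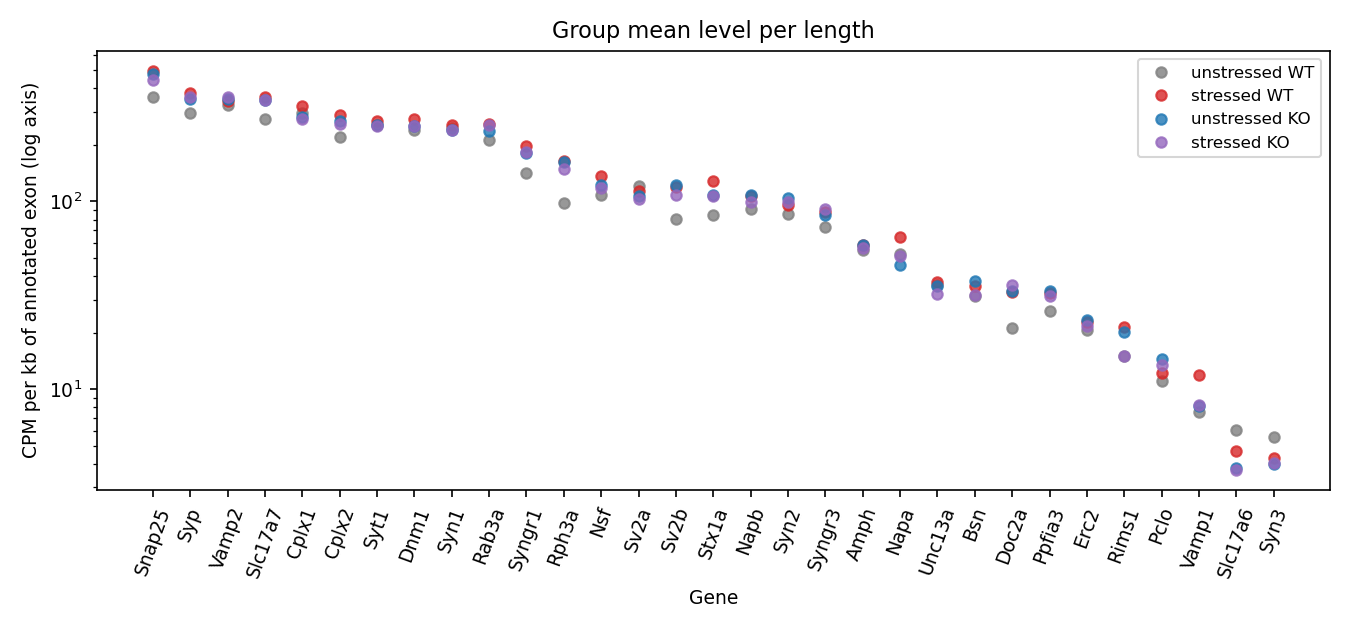
Level of each of the 31 genes per kilobase of annotated exon (CPM per kilobase, log axis), with points for the 4 group means of 3 libraries each. Snap25, at 443 CPM per kilobase over all groups, is at the top and Syn3, at 4.45, at the bottom.

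Levels of the members also differed in how much they varied over the 12 libraries. The highest library was 1.19 times the lowest for Vamp2, 1.26 times for the endocytic adaptor Amph and 1.31 times for the vesicle GTPase Rab3a. It was 2.66 times the lowest for Rph3a, a Rab3 effector, and for Slc17a6, 2.43 times for the vesicle glycoprotein Sv2b and 2.36 times for the calcium-binding protein Doc2a. In 17 of the 31 members, unstressed WT libraries 1 and 2 were the 2 lowest of all 12, and in Syn3 and Slc17a6 they were the 2 highest. In Syn3 unstressed WT library 3 was nearly level with them, at 67.9 CPM against 68.0 and 68.7 CPM. Over all genes tested, 17.7% had unstressed WT libraries 1 and 2 as the 2 lowest. The share with them as the 2 highest is not given here. The part of the bulb and meningeal markers of these libraries in this pattern was not tested.

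**Figure D2:**
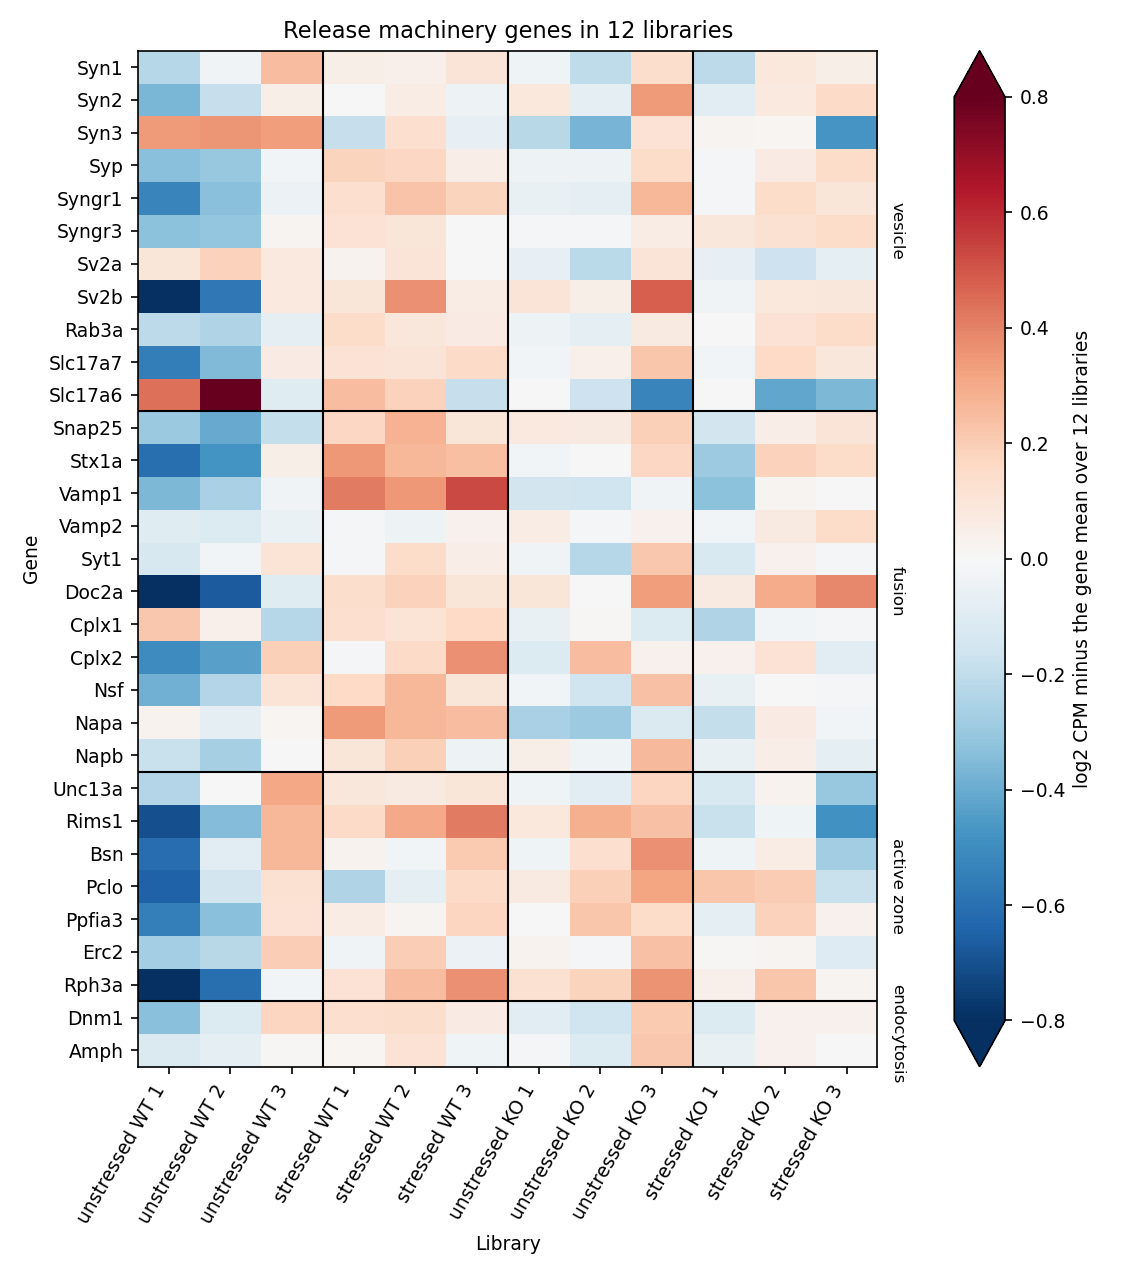
Log2 CPM of the 31 genes (rows, by role) in the 12 libraries (columns, by group), each gene centred on its mean over the libraries. Unstressed WT libraries 1 and 2 are the lowest of the 12 in 17 genes.

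The first comparison asked how chronic stress went with the release machinery in WT mice. Of the 31 members, 10 rose and none fell in stressed against unstressed WT by edgeR's quasi-likelihood test at an adjusted p under 0.05, which is 32.3% of the list. Over all genes tested, 9.71% were called higher and 12.1% lower. DESeq2 called 13 members and 26.5% of all genes, and 18 members and 38.2% of all genes had an unadjusted edgeR p under 0.05. The median log2 fold change was 0.27 over the members and 0.002 over all genes. Of the members 28 of the 31 values were above 0, beside 50.3% of all genes. In bulk tissue, fewer cells of a type and less RNA per cell cannot be told apart. The groups did not overlap in 11 members that were higher and in 1 that was lower, beside 19.4% and 17.2% of all genes.

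Among the fusion proteins, 5 of 11 rose, with a median log2 fold change of 0.33 for the 11. Vamp1, a vesicle SNARE related to Vamp2, was at 69.4, 74.6 and 87.3 CPM in unstressed WT and at 119, 113 and 129 CPM in stressed WT. All 3 stressed libraries lay above all 3 unstressed ones, with a log2 fold change of 0.64 ± 0.11 (SE, n = 3 a group; edgeR adjusted p = 0.0122). Snap25 was at 2429, 2248 and 2613 CPM in the unstressed libraries and rose to 3335, 3605 and 3184 CPM in the stressed ones, again with no overlap (0.47 ± 0.10, adjusted p = 0.0142). Stx1a, its membrane partner, was at 184, 200.5 and 288 CPM and at 356, 337 and 330.4 CPM. The third unstressed library was much closer to the stressed ones than the others were, and the log2 fold change was 0.60 ± 0.16 (adjusted p = 0.0247). Doc2a, a calcium-binding protein of asynchronous release, was at 46.4, 52.8 and 78.3 CPM and at 92.5, 95.3 and 89.5 CPM (0.64 ± 0.16, adjusted p = 0.0223). Its 3 stressed libraries lay close together above a wide unstressed group. Napa, the alpha-SNAP adaptor that brings NSF to SNARE complexes, was at 205, 191 and 203 CPM and at 255, 241 and 238 CPM. This was a small and even difference, with no overlap (0.29 ± 0.08, adjusted p = 0.0261). The remaining fusion genes did not pass. Nsf itself had a log2 value of 0.33, the complexins Cplx2 and Cplx1 0.39 and 0.11, and Napb, the beta form of SNAP, 0.23. Vamp2 and the calcium sensor Syt1 had 0.08 and 0.07.

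Among the vesicle proteins, 4 of 11 rose. Syngr1, a synaptogyrin of the vesicle membrane, was at 577, 660.0 and 806 CPM in unstressed WT and 917, 975 and 944 CPM in stressed WT (log2 0.47 ± 0.12, edgeR adjusted p = 0.0244). Syp, the vesicle membrane protein synaptophysin, was at 1417, 1452 and 1762 CPM and at 2024, 2006 and 1861 CPM (0.35 ± 0.10, adjusted p = 0.0346). In both genes the groups were apart, with unstressed library 3 nearest to the stressed ones. Rab3a was at 462, 453 and 508 CPM and at 593, 571 and 561 CPM (0.28 ± 0.08, adjusted p = 0.0267). Syngr3 was at 138, 139.9 and 176 CPM and at 188, 185 and 174 CPM. Its groups overlapped, and its call (0.27 ± 0.09, adjusted p = 0.0496) was lost under other scalings of the libraries or without the filter on low counts, with adjusted p from 0.0514 to 0.0601. With 1 library left out in turn, its edgeR adjusted p ranged from 0.00121 to 0.202. Sv2b (0.56, adjusted p = 0.0567) and Slc17a7, the main glutamate transporter of cortical vesicles (0.38, adjusted p = 0.0631), did not pass. Syn3 had a log2 value of -0.38 (adjusted p = 0.0748) with the groups apart, at 68.0, 68.7 and 67.9 CPM and at 47.3, 59.0 and 51.5 CPM. Syn3 overlaps Timp3 on the opposite strand, and Timp3 had a log2 fold change of -0.73 ± 0.19 (adjusted p = 0.0235). Timp3 was at 126, 153 and 88.7 CPM in unstressed WT and at 64.0, 71.2 and 85.9 CPM in stressed WT. Whether counting used the strand is not given in the sources used here, so reads of these genes may have been mixed. This was not tested. Of the called members, Vamp1, Doc2a, Syngr1 and Rab3a likewise overlap Tapbpl, Ino80e, Rpl3 and Mpv17l2. Those had log2 values of 0.21, 0.09, 0.11 and 0.20, and none was called. The synapsins Syn1 and Syn2 had values of 0.05 and 0.16, and Sv2a, paralogue of Sv2b, -0.08.

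Of the 7 genes grouped under the active zone, 1 rose. It was Rph3a, the Rab3 effector placed in this group, and no other gene of the group was called. Rph3a was at 311, 423 and 631 CPM in unstressed WT and at 696, 763 and 828 CPM in stressed WT, a log2 fold change of 0.74 ± 0.20 (edgeR adjusted p = 0.0243). Every stressed library was above every unstressed one, and the unstressed values were widely spread. The active zone organiser Rims1 had a log2 value of 0.50 (adjusted p = 0.0840) and overlapping groups. The liprin Ppfia3 had 0.31, the scaffolds Bsn, Pclo and Erc2 had 0.17, 0.15 and 0.13, and the priming factor Unc13a 0.04, none of which passed. Neither endocytic gene passed, with 0.19 for dynamin 1 (Dnm1) and 0.09 for Amph.

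**Figure D3:**
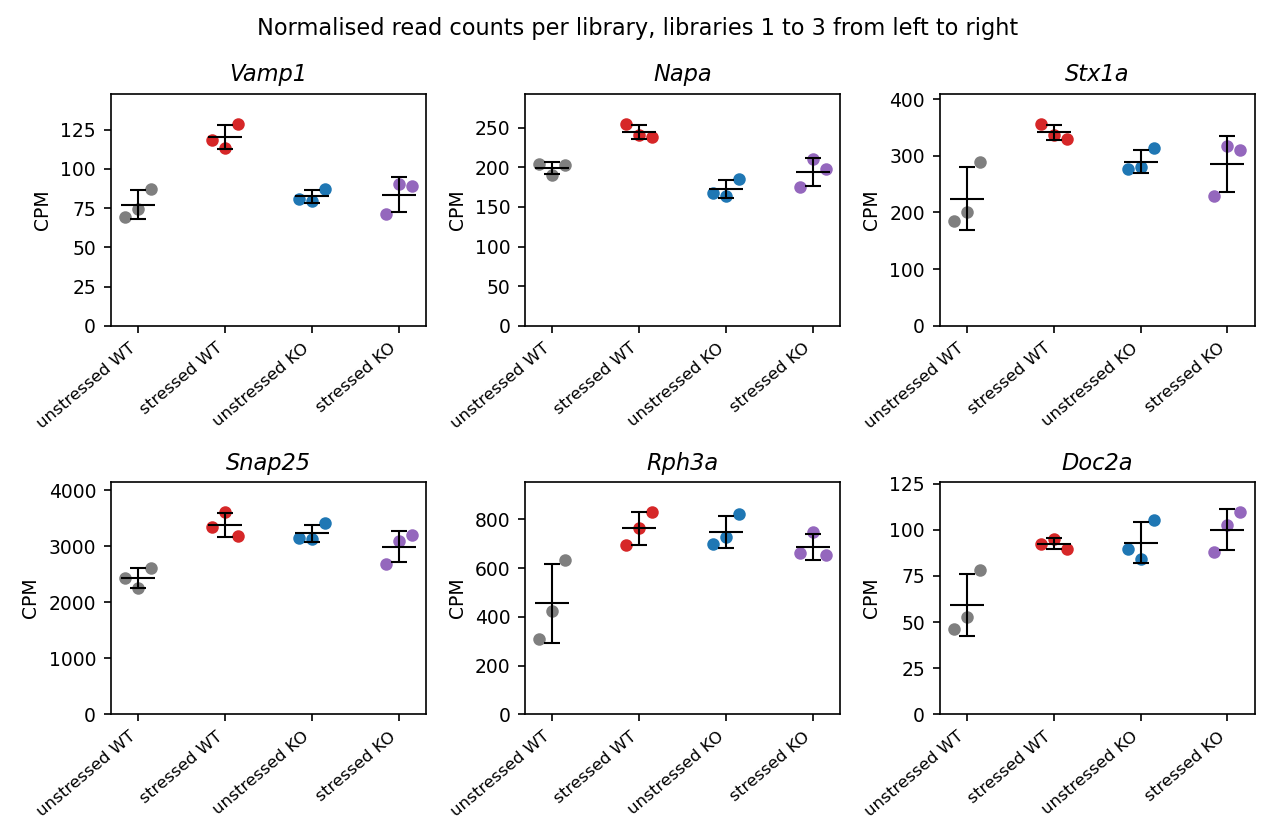
CPM in each of the 12 libraries (points) for 6 members, by group, with a dash at the group mean and error bars of 1 SD (n = 3); axes start at 0. Vamp1 and Napa are highest in stressed WT, while Snap25, Rph3a and Doc2a are lowest in unstressed WT.

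The calls depended on which WT libraries were kept, and so did calls over all genes. Without unstressed WT libraries 1 and 2, the median log2 fold change was 0.05 over the members and 0.003 over all genes. Of the members, 19 of 31 values were above 0. That fit had 1 unstressed WT library left, with its spread taken from the other groups, so its counts of calls are not given. Vamp1 then had 0.46, Snap25 0.37 and Napa 0.26. Of the other 7 called members, Rph3a went from 0.74 to 0.27, Doc2a from 0.64 to 0.24, Stx1a from 0.60 to 0.24, Syngr1 from 0.47 to 0.23, Syp from 0.35 to 0.15, Rab3a from 0.28 to 0.18 and Syngr3 from 0.27 to 0.05 on the log2 scale. With stressed KO library 1 left out as well, the median was again 0.05. With all libraries, the adjusted p of DESeq2 was 7.9e-06 for Vamp1, 2.2e-05 for Snap25 and 0.00487 for Napa. With 1 library left out in turn, the edgeR adjusted p ranged from 0.000434 to 0.0658 for Vamp1. It ranged from 0.00246 to 0.0811 for Snap25 and from 0.0204 to 0.129 for Napa. Leaving out unstressed WT library 1, 2 or 3 alone left 2, 0 and 20 members called, beside 967, 0 and 5635 of all genes. Leaving out stressed WT library 1, 2 or 3 alone left 5, 0 and 3, beside 2010, 0 and 1660 of all genes. With all libraries 3322 genes were called, so the count of members moved with the count over all genes. Marker lists of other cells moved in the same comparison: all 11 olfactory bulb markers and 11 of 12 meningeal markers were called lower with stress, and 9 of 11 oligodendrocyte markers higher. Of 14 general neuronal markers 6 were called higher and 1 lower, of 12 cortical excitatory markers 2 and 1, and of 12 interneuron markers 3 and 7, while 3 of 11 astrocyte markers and 1 of 8 endothelial markers were called lower. Their part in the members' result was not tested.

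In 3 members, Vamp1, Napa and Stx1a, the stressed WT libraries lay above all 9 others, a pattern found in 1.78% of all genes tested. These genes were picked from their values. Vamp1 was at 80.6, 79.7 and 87.3 CPM in unstressed KO and at 71.1, 90.4 and 89.4 CPM in stressed KO. The KO levels of Vamp1 thus overlapped those of unstressed WT and stayed below stressed WT. Napa was at 168, 164 and 185 CPM in unstressed KO and 176, 210.4 and 197 CPM in stressed KO. Stx1a was at 276, 279 and 313 CPM and at 229, 318 and 309.7 CPM. KO values of Stx1a approached the stressed WT range more closely than those of the other pair did.

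The start regions of these 3 genes are shown because they share this pattern. Vamp1 lies on chromosome 6 at 125215551 to 125245964, Napa on chromosome 7 at 16098458 to 16117975 and Stx1a on chromosome 5 at 135023482 to 135051100, all on the plus strand (GRCm38). The sequences are RefSeq's on GRCm38.p6, from 250 bases before to 50 after the annotated start, on the plus strand and 5′ to 3′. They span chr6:125215331-125215630, chr7:16098330-16098629 and chr5:135023232-135023531. Capitals mark the cyclic AMP response element TGACGTCA, its shorter form TGACG and the GC box GGGCGG, searched on both strands; each full element also holds the shorter form.
Vamp1: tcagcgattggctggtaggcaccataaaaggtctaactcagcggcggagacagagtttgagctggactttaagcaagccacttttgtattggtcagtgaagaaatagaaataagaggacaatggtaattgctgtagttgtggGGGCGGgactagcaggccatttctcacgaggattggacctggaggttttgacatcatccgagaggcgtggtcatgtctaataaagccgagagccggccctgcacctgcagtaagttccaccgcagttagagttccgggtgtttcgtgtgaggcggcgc
Napa: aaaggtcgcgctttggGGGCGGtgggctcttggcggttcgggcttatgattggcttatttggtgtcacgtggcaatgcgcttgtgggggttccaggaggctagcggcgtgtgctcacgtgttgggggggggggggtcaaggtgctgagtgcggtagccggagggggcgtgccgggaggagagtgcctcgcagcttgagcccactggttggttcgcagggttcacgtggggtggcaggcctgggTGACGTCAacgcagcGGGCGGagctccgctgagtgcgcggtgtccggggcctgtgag
Stx1a: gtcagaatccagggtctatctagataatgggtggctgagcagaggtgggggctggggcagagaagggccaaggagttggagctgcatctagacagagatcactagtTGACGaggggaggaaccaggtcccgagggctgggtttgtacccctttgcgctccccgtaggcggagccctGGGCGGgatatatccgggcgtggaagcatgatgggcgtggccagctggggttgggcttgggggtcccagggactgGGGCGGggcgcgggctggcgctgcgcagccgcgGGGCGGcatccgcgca
Napa held a full element and GC boxes, Stx1a the shorter form and GC boxes, and Vamp1 a GC box. Of the 31 members, 26 were found in the RefSeq table, with 35 start regions, and Syn3, Vamp2, Doc2a, Syngr3 and Snap25 were not matched. Among the 35 regions, 2 (5.71%), those of Napa and Syn1, held TGACGTCA, against 2.89% of those of all tested genes. TGACG was held by 22.9% and 29.1%, GGGCGG by 57.1% and 60% and CCAAT by 25.7% and 37.2%. The E-box CACGTG was held by 8.57% and 9.4%, TATAAA by 5.71% and 7.41% and the Egr element GCGTGGGCG by 2.86% (1 region) and 1.11%. A match is a description of letters and not of a factor bound there.

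Some members have a close relative in the list, and the share of a pair's counts cancels the scaling of the library. Vamp1 made up 5.34, 5.78 and 6.46% of the counts of Vamp1 and Vamp2 in unstressed WT, against 8.37, 8.15 and 8.72% after stress. In unstressed WT library 1, the exact 95% binomial interval was 5.12 to 5.57%, and in stressed WT library 1 it was 8.08 to 8.66%. The share was 5.82 ± 0.26% (SD, n = 3) in unstressed KO and 5.72 ± 0.48% in stressed KO. Stressed WT alone was thus set apart from the other 3 groups, with a lowest value of 8.15% against a highest of 6.46% elsewhere. Vamp1 had been picked above for this pattern and Vamp2 varied little between libraries, so the share is not a separate result. The binomial intervals cover counting error only. Napa made up 23.8 ± 1.31% of Napa and Napb in unstressed WT and 24.6 ± 1.44% in stressed WT. In KO its share was 18.5 ± 0.63% without stress and 21.8 ± 1.14% with it. The unstressed KO libraries, at 17.9 to 19.1%, lay below all others.

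**Figure D4:**
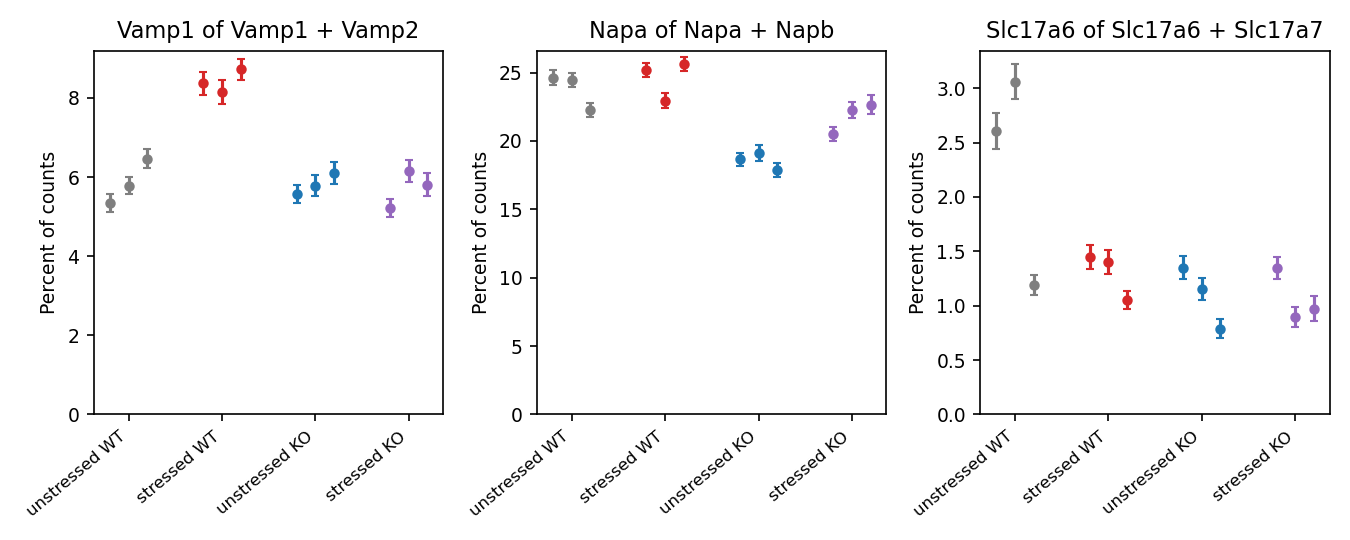
Share of the first gene in the summed counts of a related pair (%), per library (points) and by group, with exact 95% binomial intervals as bars. The Vamp1 share is 8.15 to 8.72% in stressed WT and 5.21 to 6.46% in the other 9 libraries.

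The same stress in KO mice gave no call among the members. By edgeR 0 of 31 passed, 1 had an unadjusted p under 0.05, and DESeq2 called 0. Over all genes these shares were 0.0197%, 9.20% and 0.303%. The median log2 fold change was -0.03, with 10 values above 0 and 21 below. Over all genes the median was -0.004, and 49.1% were above 0. Syngr3 was apart and higher and Rims1 apart and lower, beside 8.45% of all genes in each direction. The smallest p belonged to Napa (0.17 ± 0.08, edgeR adjusted p = 0.541). Rims1 was at 136, 156 and 151 CPM in unstressed KO and 113, 125 and 91.6 CPM in stressed KO (-0.42 ± 0.20, adjusted p = 0.547). Its stressed libraries were all below the unstressed ones. Rab3a had 0.10 (adjusted p = 0.704) and Bsn -0.24 (adjusted p = 0.711). All 7 active zone genes had values below 0, from -0.42 to -0.08, and none passed. Without unstressed WT libraries 1 and 2, again 0 members were called, with a median of -0.03. Without stressed KO library 1 as well, 0 were called, with a median of -0.02 and 14 values above 0, and Napa had 0.24 (adjusted p = 0.360) and Rims1 -0.44 (adjusted p = 0.316).

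The comparison of genotypes without stress used the same unstressed WT libraries as the stress comparison in WT, so the results are not independent. In unstressed KO against unstressed WT, 4 members were higher and 2 lower at an adjusted p under 0.05. These are 12.9% and 6.45% of the list, while 11.2% of all genes were called higher and 12.1% lower. DESeq2 called 9 members and 27.5% of all genes, and 16 members and 39.1% of all genes had an unadjusted edgeR p under 0.05. The groups were apart in 5 members that were higher and 2 that were lower, beside 18.5% and 18.0% of all genes.

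Snap25 was at 3147, 3132 and 3406 CPM in unstressed KO, above all 3 unstressed WT values (log2 0.41 ± 0.10, edgeR adjusted p = 0.0176). Doc2a was at 89.8, 84.1 and 105 CPM (0.65 ± 0.16, adjusted p = 0.0195) and Rph3a at 698, 727 and 823 CPM (0.72 ± 0.20, adjusted p = 0.0247). Both were above every unstressed WT library. Sv2b was at 942, 907 and 1224 CPM in KO against 504, 589 and 925 CPM in WT, with overlap through the highest WT library (0.61 ± 0.19, adjusted p = 0.0433). Syn3 was lower, at 46.2, 41.7 and 58.2 CPM in KO (-0.49 ± 0.14, adjusted p = 0.0320), with no overlap of the groups. Timp3, which lies across from Syn3 on the opposite strand, was lower too (-0.59 ± 0.19, adjusted p = 0.0437). Whether reads of Syn3 and Timp3 were mixed was not tested. Slc17a6, the vesicular glutamate transporter best known from subcortical neurons, was at 23.8, 21.2 and 16.4 CPM in KO against 32.2, 43.7 and 22.2 CPM in WT. Its groups overlapped (-0.67 ± 0.22, adjusted p = 0.0471). Napa had a log2 value of -0.21 ± 0.08 and did not pass (adjusted p = 0.0708). Without unstressed WT libraries 1 and 2, with 1 unstressed WT library left, the median log2 fold change was 0.005 in place of 0.21. Rph3a then had 0.25, Doc2a 0.25, Sv2b 0.15 and Slc17a6 -0.12, while Snap25 had 0.30 and Syn3 -0.48. With 1 library left out in turn, Snap25 ran from 0.34 to 0.45, Doc2a from 0.50 to 0.90 and Rph3a from 0.50 to 1.02. Sv2b ran from 0.43 to 0.90, Syn3 from -0.63 to -0.38 and Slc17a6 from -0.90 to -0.42. Each of these genes had an edgeR adjusted p above 0.05 in at least 1 of these fits. In the same comparison all 11 olfactory bulb markers, 9 of 12 meningeal markers and 6 of 12 interneuron markers were called lower, and 3 interneuron and 5 of 14 general neuronal markers higher. Of 12 cortical excitatory markers 2 were called higher and 1 lower. Of 10 microglia markers 2 and of 11 astrocyte markers 1 were called higher, and of 11 striatal markers 1 lower. Their part in the members' result was not tested.

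With stress, no member was called between genotypes by edgeR, while 3 of 31 had an unadjusted p under 0.05 and DESeq2 called 2, Vamp1 and Napa, both lower in KO. Over all genes 0.250% were called by edgeR, 13.0% had an unadjusted p under 0.05 and 1.97% were called by DESeq2. The median log2 fold change of stressed KO against stressed WT was -0.11 over the members and -0.003 over all genes. Of the members 26 of 31 values were below 0, while 49.3% of all genes were above 0. The groups were apart in 9 members, all lower in KO, where 10.8% of all genes were apart and higher and 11.3% apart and lower. Vamp1 had -0.53 ± 0.11 (edgeR adjusted p = 0.0790), with 71.1 to 90.4 CPM in stressed KO below 113 to 129 CPM in stressed WT. Without unstressed WT libraries 1 and 2, which are in neither group compared here, it was the only member called (edgeR adjusted p = 0.0424), and 0 were called (Vamp1 adjusted p = 0.0617) when stressed KO library 1 was left out too. Without unstressed WT library 3 alone its adjusted p was 0.0314. Over all 20 alternatives it ranged from 0.00181 (DESeq2) to 0.223. Napa had -0.33 ± 0.08 (adjusted p = 0.116), Rims1 -0.51 ± 0.20 (adjusted p = 0.295) and Cplx1, a complexin, -0.22 ± 0.11 (adjusted p = 0.400). The groups did not overlap in any of the 4, with stressed KO below.

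**Figure D5:**
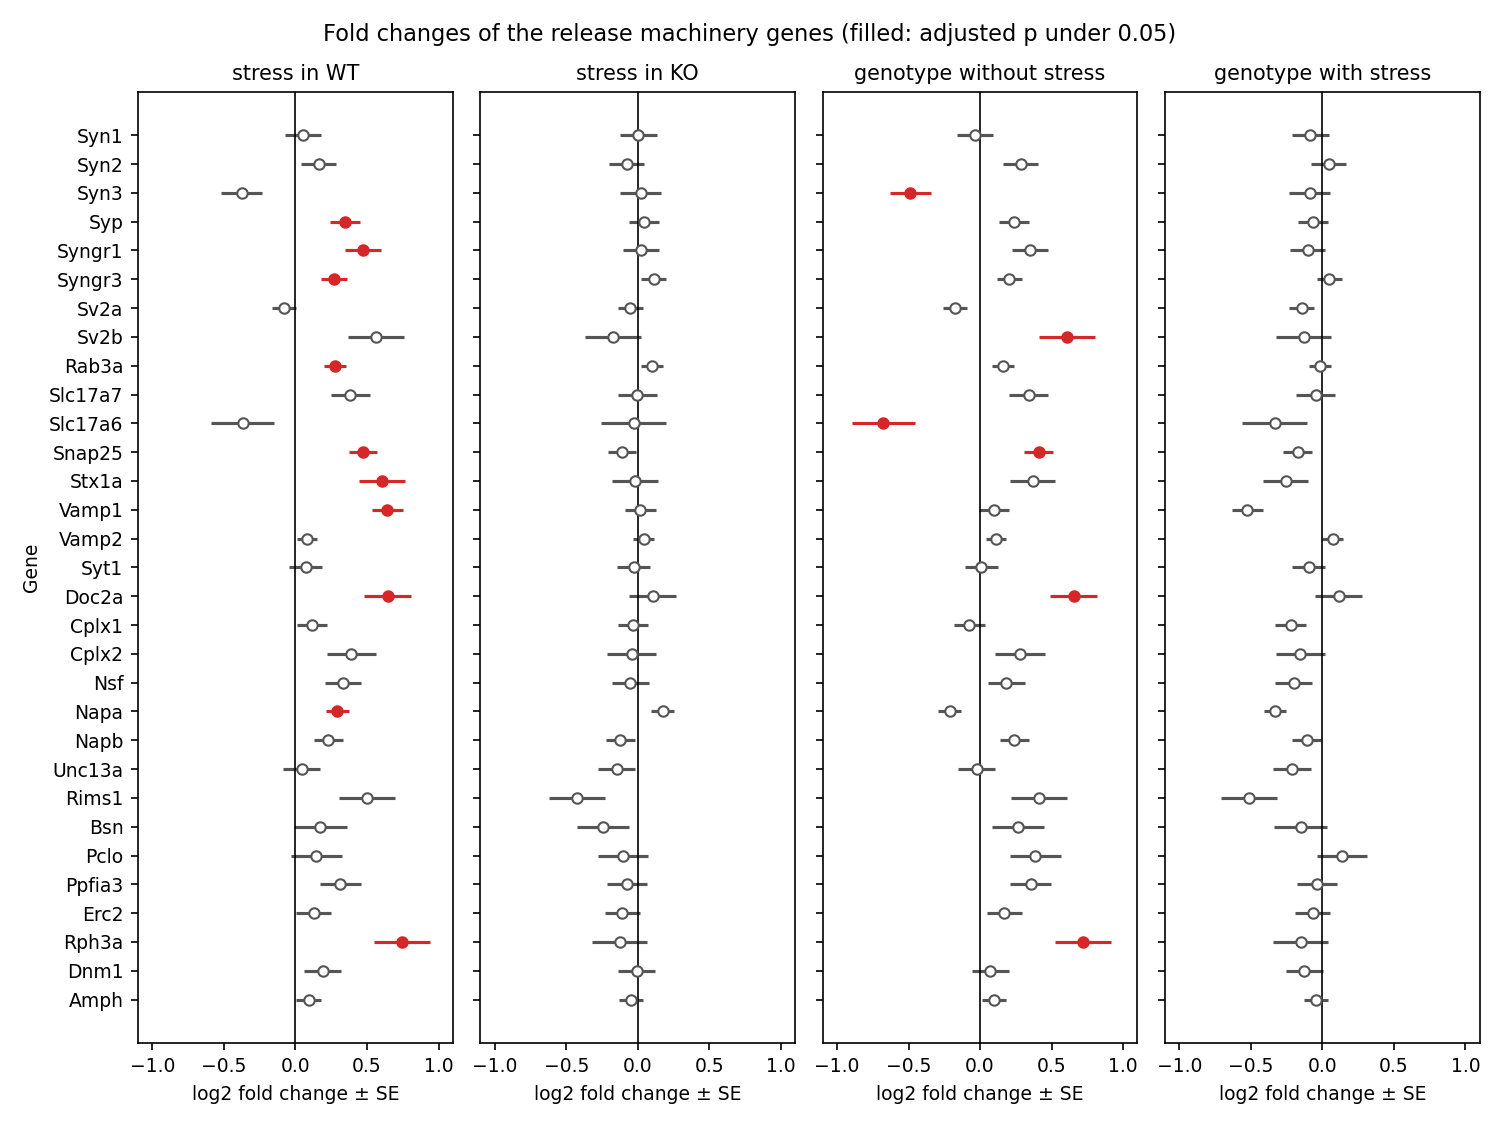
Log2 fold change of each of the 31 genes with its standard error, in the 4 comparisons of groups, with filled points for an edgeR adjusted p under 0.05. In stress in WT 10 genes are filled, in genotype without stress 6, and in the other comparisons 0.

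Whether the stress response differed between genotypes was tested directly, as the response in KO minus that in WT. No member passed by edgeR, as no gene did (0% of all tested). Among the members 9 had an unadjusted p under 0.05, all below 0, and DESeq2 called 4. These shares of the list, 29.0% and 12.9%, are near those of all genes, 28.5% and 12.4%. The 4 genes, which also had the smallest p by edgeR, were Snap25 (-0.58 ± 0.14, edgeR adjusted p = 0.0577), Vamp1 (-0.62 ± 0.15, adjusted p = 0.0577), Rims1 (-0.92 ± 0.28, adjusted p = 0.0755) and Rph3a (-0.87 ± 0.28, adjusted p = 0.0811). The median was -0.25 over the members and -0.02 over all genes. Of the members 28 of 31 values were below 0, while 48.6% of all genes were above 0. With 1 library left out in turn, Snap25 ran from -0.64 to -0.51 and Vamp1 from -0.71 to -0.52. Rims1 ran from -1.22 to -0.72 and Rph3a from -1.17 to -0.65. Without unstressed WT libraries 1 and 2, with 1 unstressed WT library left, the median was -0.07. Snap25 then had -0.48, Vamp1 -0.44, Rims1 -0.45 and Rph3a -0.40. With stressed KO library 1 also left out, the median was -0.03. This contrast rests on the same unstressed WT libraries as the comparisons above.

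A wider list of 80 presynaptic genes outside the 31 was drawn up by role, of which 79 were in the table and tested. With stress in WT, 15 rose and 11 fell, with a median log2 fold change of 0.10. These are 19.0% and 13.9% of the list, against 9.71% and 12.1% of all genes. The synaptotagmin Syt12 rose by 0.42 ± 0.07 (edgeR adjusted p = 0.0122) and the clathrin adaptor subunit Ap2s1 by 0.40 ± 0.07 (adjusted p = 0.0122). Dnm2, the widely expressed dynamin, fell by 0.58 ± 0.13 (log2 scale, adjusted p = 0.0160). Ap2s1 was at 86.2, 84.0 and 90.8 CPM in unstressed WT and at 109 to 130 CPM in the other 9 libraries. The unstressed WT libraries were thus the lowest of the 12. With stress in KO, 0 of 79 passed by edgeR, 8 had an unadjusted p under 0.05 (10.1%, against 9.20% of all genes) and DESeq2 called 0. The smallest p were those of the endocytic genes Eps15 (-0.28 ± 0.08, adjusted p = 0.470), Itsn1 (-0.22, adjusted p = 0.470) and Cltc (-0.29, adjusted p = 0.480), and of the GTPase Rab3d (0.33, adjusted p = 0.482).

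Between genotypes without stress, 12 of the 79 were higher in KO and 5 lower, which is 15.2% and 6.33% against 11.2% and 12.1% of all genes. Ap2s1 was higher by 0.39 ± 0.07 (edgeR adjusted p = 0.00991), while the liprin Ppfia1 had -0.68 ± 0.12 (adjusted p = 0.00926) and Dnm2 -0.67 ± 0.13 (adjusted p = 0.0100). With stress, 0 passed by edgeR, 8 had an unadjusted p under 0.05 (10.1%, against 13.0% of all genes) and DESeq2 called 1, Eps15. Its log2 value was -0.35 ± 0.08 (edgeR adjusted p = 0.116). Syt12 had -0.27 (adjusted p = 0.168) and Doc2b, relative of Doc2a, 0.58 (adjusted p = 0.256). In the interaction, 0 passed by edgeR, 27 had an unadjusted p under 0.05 and DESeq2 called 11, which is 34.2% and 13.9% against 28.5% and 12.4% of all genes. Eps15, an endocytic adaptor, was at 248, 258 and 282 CPM in unstressed WT and 302, 365 and 347 CPM in stressed WT. In KO the values were 306, 338 and 325 CPM before and 273, 257 and 267 CPM after stress. The groups were apart within each genotype and in opposite directions, and the difference of the responses was -0.65 ± 0.12 (adjusted p = 0.0506). Syt12 had -0.46 (adjusted p = 0.0541) and the vesicular monoamine transporter Slc18a2 3.59 (adjusted p = 0.0640), the last at no more than 4.23 CPM in any library. Without unstressed WT libraries 1 and 2, 1 unstressed WT library was left, and the median of the 79 for stress in WT was 0.01.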

How the data were processed

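Total RNA from medial prefrontal cortex was made into directional libraries, per the labels' protocols. The authors deposited 1 table of estimated counts per gene symbol and library, not normalised. The submitters' processing notes name Trim Galore 0.6.6, STAR 2.7.9a, RSEM 1.3.1, DESeq2 1.36.0 and the build mm10; annotation, strand setting and filters: not given in the sources used here.

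Estimated counts were made whole by rounding, which left every member's value as deposited. Genes with low counts were removed with filterByExpr (minimum count 10, minimum total 15), libraries were scaled with TMM factors, and 5 contrasts were tested, two-sided, with edgeR's quasi-likelihood test, fitted once to the 4 group means of the 12 libraries (8 residual degrees of freedom). P-values were adjusted over all 15199 genes by Benjamini-Hochberg, with a threshold of 0.05. Errors of fold changes are standard errors of that fit, and marker scores use log2 CPM with a prior count of 2. Tools were edgeR 4.0.16, DESeq2 1.42.0 and limma 3.58.1, run in R 4.3.3. The test was also tested on simulated data with known changes. Replicates differed beyond sampling noise (chi-square per degree of freedom 4.87 to 68.6), so none was counted as a duplicate. Binomial intervals are exact (Clopper-Pearson) and cover counting error only. Positions and exon lengths come from GENCODE release M21 on GRCm38.

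The members and the other lists were chosen with earlier results of these data known. All members are described by role; errors and adjusted p are given for members past the threshold and for the 4 with the smallest p in each comparison, and the 4 smallest p of the wider list are named, except for some genes that are not reported here. Adjusted p for other members, and values of Timp3 and the other overlapping genes, Eps15 and the pairs, were chosen after their values were seen. Alternatives were other scalings, no filter, DESeq2, only the compared groups, the replicate number as a block, and leaving out libraries.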

Additional observations from a re-analysis of the deposited data

How the results depend on the processing

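The counts of calls for stress in WT moved with single libraries of unstressed and of stressed WT, over all genes as among the members. Every member had at least 289 counts in each library. With only the compared groups in the fit, 0 members were called for stress in WT, beside 1 of all genes. For genotype without stress 0 members were called, and of the wider list 0 and 0 in these comparisons. For genotype with stress 1 of the wider list, Syt2, was called (edgeR adjusted p = 0.0346). Leaving out both unstressed WT libraries of high olfactory bulb score left 1 unstressed WT library, as did leaving out the stressed KO library with the highest striatal score too. Counts of calls from these settings are not given for stress in WT and genotype without stress. For genotype with stress the first of these settings gave 1 member (Vamp1) and 1 of the wider list (Syt2). Which property of the libraries causes the changes between settings was not tested.

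Leaving out 1 library in turn gave 0 to 20 members for stress in WT, 0 to 20 for genotype without stress, 0 to 1 for genotype with stress and 0 to 16 for the interaction. For the wider list the ranges were 0 to 40, 1 to 39, 0 to 0 and 0 to 30. Calls over all genes ran from 0 to 5635 for stress in WT in the same fits, and for the other comparisons they are not given here. DESeq2 called 13, 9, 2 and 4 members and 31, 27, 1 and 11 of the wider list in these 4 comparisons, and 26.5, 27.5, 1.97 and 12.4% of all genes; the wider counts by edgeR were 26, 17, 0 and 0. In the interaction Eps15 alone passed with DESeq2's size factors, upper quartile factors or no filter (1 of the wider list each, adjusted p from 0.0474 to 0.0490). Syt6, of the wider list, reversed to 0.10 for stress in WT without the libraries of high bulb score, in both such settings; the cause was not tested. Of 1652 values of named genes under alternatives, 1162 kept their direction and side of the threshold, 464 lost and 24 gained a call, and 2 reversed.

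Whether replicate numbers pair the samples is not stated, and 3 libraries a group are too few to tell. Correlations of same-numbered libraries ran from -0.246 to 0.364. The same number was the best match for 2 of 3 libraries of unstressed WT against unstressed KO, and for 0 or 1 in each other pair of groups. With the replicate number as a block, 11 members were called for stress in WT, beside 3007 of all genes. Of the wider list 29 were called for stress in WT. For genotype without stress 7 members and 21 of the wider list were called. The count over all genes is not given here for that fit, so these are not read as a result about the lists. In the other 3 comparisons 0 members and 0 of the wider list were called.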

Other observations

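The shares of other related pairs were as follows. Sv2b made up 53.6 ± 8.18% (SD, n = 3) of the counts of Sv2a and Sv2b in unstressed WT, 65.1 ± 1.78% in stressed WT, 67.2 ± 1.57% in unstressed KO and 65.5 ± 1.67% in stressed KO. The unstressed WT libraries ran from 47.8 to 63.0%, all below the lowest value of 63.7% elsewhere. Slc17a6 made up 2.28 ± 0.98% of the counts of both vesicular glutamate transporters in unstressed WT and 1.07 ± 0.24% in stressed KO, with 1.19 to 3.06% among the unstressed WT libraries. Syngr3 made up 16.2 to 18.2% of the synaptogyrin pair in the 4 group means, and Cplx1 of the complexin pair 38.3 ± 9.39% in unstressed WT (27.7 to 45.6%), 33.3 ± 2.73% in stressed WT, 32.1 ± 2.25% in unstressed KO and 32.1 ± 2.64% in stressed KO. These pairs were not tested.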
